A study of Rattus norvegicus with 6 samples.

Results

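The genes Bcan, Fbln2, Lamb1 and Lama2 of the extracellular matrix were followed in rat oligodendrocytes (OLs) grown on flat hydrogels or around hydrogel micropillars. They were taken by their Ensembl identifiers as 4 of the 32552 genes in the count files and 4 of the 13163 genes tested. OLs are the glia that wrap axons of the central nervous system in myelin, and the study used the pillars as stand-ins for axons, asking here how OL transcription differs between a flat and a pillared surface. Wild-type O4+ cells, labelled as oligodendrocyte progenitor cells, came from the cerebral cortex of Sprague-Dawley rats of 6 to 7 days, 2 rats of mixed sex per isolation. They were kept for 10 days on 50 kPa polyacrylamide, first with PDGF-AA and then in a myelination medium with T3, and the groups were 3 libraries from flat gels and 3 from pillars 5 µm wide and 22 µm tall, set 10 µm apart. Surfaces carried poly-D-lysine unless another coating is named, and none is named for these libraries. The sources used here do not say whether the libraries of a group were separate isolations, so p-values measure the spread between these samples, which may be technical.

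The matrix of the brain has few fibrillar collagens and is built around hyaluronan and the proteoglycans that bind it. Brevican, encoded by Bcan, is such a proteoglycan of the lectican family and is made by glia. Fibulins are secreted glycoproteins that bridge other matrix proteins. Laminins are trimers of an alpha, a beta and a gamma chain that form basement membranes, such as that around brain vessels. Lama2 encodes the alpha 2 chain and Lamb1 the beta 1 chain, and laminin binds integrins and dystroglycan on OLs.

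Bcan and Fbln2 rose on micropillars, Lamb1 fell, and Lama2 did not pass the test. The rise was 2.5-fold for Bcan and 2.31-fold for Fbln2. Lamb1 was 11.4-fold higher on flat gels, but in few counts, and Lama2 had 32 counts in sum in either group. A gene was called where edgeR's quasi-likelihood test gave a Benjamini-Hochberg adjusted p under 0.05 over all genes tested. By that rule 3 of the 4 genes were called, beside 26.7% of all genes, of which 15.3% were higher and 11.4% lower on micropillars. With the study's further requirement of a log2 fold change over 1 in size, the same 3 were called, beside 6.76% of all genes, of which 3.61% were higher and 3.15% lower. In both counts, Lamb1 had entered the test through its 3 flat libraries alone, the group where it is high. Its call is thus not of the same kind as those of Bcan and Fbln2, which passed the filter on low counts in both groups. The study lists all 4 genes from these same libraries, Bcan and Fbln2 among its top genes and both laminin genes in a heat map, so the calls are no independent evidence. Its text describes Lamb1 and Lama as decreased on micropillars. The heat map gene is Lama2, which was not called here (adjusted p = 0.83, quasi-likelihood test of edgeR).

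Promoter sequences of the 3 called genes are shown because the genes moved in different directions. They are the 250 bases before the RefSeq start site, on build GRCr8, whereas the counts were made on Rnor6.0. Capitals mark the GC box GGGCGG, the core motif of the SP family of factors, on either strand. The windows are Bcan at chr2:175765315-175765564 on the minus strand, Fbln2 at chr4:125261409-125261658 on the plus strand and Lamb1 at chr6:53562846-53563095 on the plus strand.
Bcan: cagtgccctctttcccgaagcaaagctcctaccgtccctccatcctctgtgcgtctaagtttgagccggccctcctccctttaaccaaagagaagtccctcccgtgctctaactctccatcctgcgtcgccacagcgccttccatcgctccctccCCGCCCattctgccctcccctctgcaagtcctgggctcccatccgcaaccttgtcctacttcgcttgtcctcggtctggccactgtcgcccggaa
Fbln2: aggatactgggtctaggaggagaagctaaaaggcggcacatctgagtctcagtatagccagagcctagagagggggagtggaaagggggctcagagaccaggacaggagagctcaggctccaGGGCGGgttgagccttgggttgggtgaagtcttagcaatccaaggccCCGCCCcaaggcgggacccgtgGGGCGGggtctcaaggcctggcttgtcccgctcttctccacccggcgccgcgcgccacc
Lamb1: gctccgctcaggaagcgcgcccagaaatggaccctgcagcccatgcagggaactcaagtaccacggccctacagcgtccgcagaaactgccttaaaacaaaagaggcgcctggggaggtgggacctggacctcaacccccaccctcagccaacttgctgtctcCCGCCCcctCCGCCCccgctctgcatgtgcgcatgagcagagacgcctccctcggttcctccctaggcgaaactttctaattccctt

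The GC box occurred once in the Bcan window, 3 times in that of Fbln2 and 2 times in that of Lamb1. It occurred once in the window of Lama2, whose sequence is not shown, at chr1:19491896-19492145 on the plus strand. Among all 33469 promoters of the same length, 30.5% held it. The window of Bcan had a G and C content of 61.2%, that of Fbln2 64.0%, that of Lamb1 62.0% and that of Lama2 55.6%, beside a median of 51.2% over all promoters. CpG dinucleotides numbered 15, 12, 14 and 2 in the same order. Other motifs were searched on both strands. The E-box CANNTG was found once each for Fbln2, Lamb1 and Lama2 and not for Bcan, beside 65.5% of all promoters. The hypoxia response core ACGTG, the AP-1 site TGANTCA, the TEAD core GGAATG, the SOX motif ACAAAG and the TATA box TATAAA were in none of the 4 windows.

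Brevican was the most abundant of the 4. Bcan (ENSRNOG00000018798) lies on the minus strand of chromosome 2, from 187359677 to 187372657 on Rnor6.0, and its exons hold 3271 bases in 14 separate blocks. No exon base of any of the 4 genes is shared with another gene of the annotation. Bcan had 3676, 4380 and 2240 counts in flat replicates 1 to 3, and 9738, 9101 and 9360 counts in micropillar replicates 1 to 3. Scaled to CPM, counts relative to the library size as TMM in edgeR adjusts it, these were 285, 291 and 201 CPM on flat gels and 662, 657 and 624 CPM on micropillars. Flat replicate 3 was the lowest library, and the groups did not overlap, as for 46.0% of all genes (24.3% with the micropillar group higher and 21.7% with it lower). The flat mean was 259 ± 50.1 CPM and the micropillar mean 647 ± 20.8 CPM (SD, n = 3 each). The log2 fold change of 1.32 had a standard error of 0.15, a 95% interval of 0.99 to 1.66 and a Benjamini-Hochberg adjusted p of 0.0012 in the quasi-likelihood test of edgeR. By log2 fold change it ranked 224 from the highest of the genes tested.

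Fibulin 2 was less abundant and rose 2.31-fold. Fbln2 (ENSRNOG00000007338) lies on the plus strand of chromosome 4, from 122835436 to 122895121, with 18 exons of 4309 bases in all. It had 396, 484 and 324 counts on flat gels and 1088, 1034 and 953 counts on micropillars. These were 30.7, 32.1 and 29.1 CPM against 73.9, 74.6 and 63.5 CPM. Each micropillar library was above each flat library, and micropillar replicate 3 was the lowest of its group, as it was for Bcan. The mean was 30.6 ± 1.52 CPM (SD, n = 3) on flat gels and 70.7 ± 6.24 CPM (SD, n = 3) on micropillars. Fbln2 had a log2 fold change of 1.21 with a standard error of 0.11, a 95% interval of 0.96 to 1.46 and a Benjamini-Hochberg adjusted p of 0.00054 in the quasi-likelihood test of edgeR. By p it ranked 17 among all genes tested, and Bcan ranked 47.

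**Figure D1:**
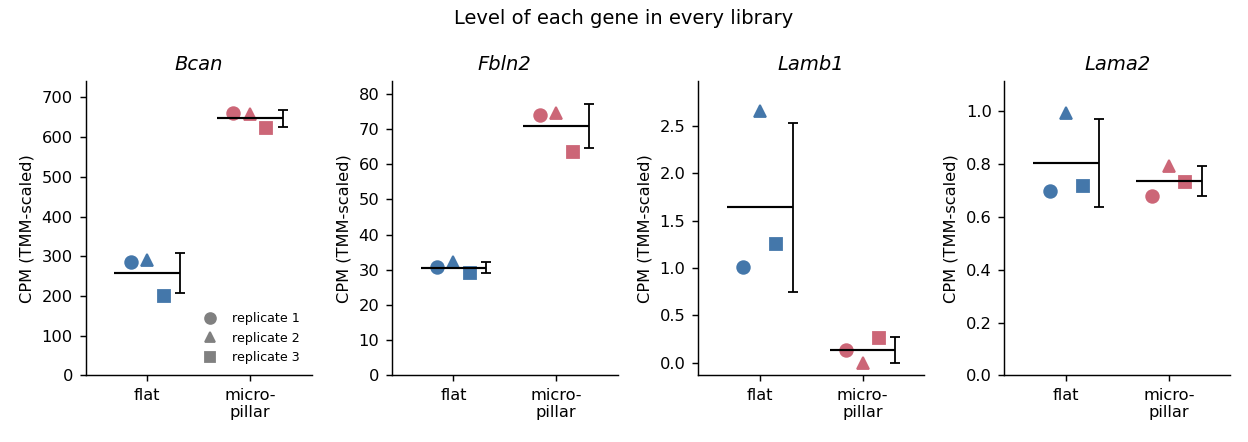
Level of each gene in TMM-scaled CPM (linear axes, a scale for each gene) in the 3 flat libraries (blue) and the 3 micropillar libraries (red), with marker shape for replicate number, a line for the mean and a bar for the SD. For Bcan, Fbln2 and Lamb1 the groups do not overlap, for Lama2 they do, and flat replicate 2 is the highest flat library in all 4 panels.

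The spread of these genes differed. On the log2 scale the SD of Fbln2 over flat libraries was 0.07, which is low beside the median of 0.23 over all genes, whereas that of Bcan was 0.30. Among micropillar libraries the SD was 0.05 for Bcan and 0.13 for Fbln2, and the median over all genes was 0.11. Flat replicate 3 deviated from the flat mean of Bcan by -0.34, and without it the log2 fold change was 1.17.

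The ratio of Bcan to Fbln2 counts needs no library scaling. It was 9.28, 9.05 and 6.91 in the flat libraries and 8.95, 8.80 and 9.82 in the micropillar libraries. The groups overlapped, and flat replicate 3 was lowest. Per kilobase of exon the ratio was 12.2, 11.9 and 9.11 on flat gels and 11.8, 11.6 and 12.9 on micropillars. Its mean log2 difference of 0.14 had p = 0.6 in a two-sided exact permutation test over the 6 libraries, which cannot go below 0.1. A difference in the factors by which both genes rose was therefore not detectable with 3 libraries a group.

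The beta 1 laminin chain moved the other way. Lamb1 (ENSRNOG00000005678) lies on the plus strand of chromosome 6, from 50528823 to 50596079, with 34 exons of 5645 bases in all. It had 13, 40 and 14 raw counts on flat gels and 2, 0 and 4 on micropillars. Exact Poisson 95% intervals, which cover counting error only, were 6.92 to 22.2, 28.6 to 54.5 and 7.65 to 23.5 for the flat counts. They were 0.242 to 7.22, 0 to 3.69 and 1.09 to 10.2 for the micropillar counts. Flat replicate 2 stood above the rest, with 59.7% of all flat counts, and its interval lay above those of all micropillar libraries. The interval of flat replicate 1 overlapped those of micropillar replicates 1 and 3, and that of flat replicate 3 overlapped that of micropillar replicate 3.

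Scaled, Lamb1 was at 1.01, 2.65 and 1.26 CPM on flat gels and 0.136, 0 and 0.266 CPM on micropillars. As a one-sided limit, a count of 0 in micropillar replicate 2 allows up to 3 counts, or 0.217 CPM, below the upper end of the two-sided interval of 3.69 counts, and the counts of replicates 1 and 3 are near that limit. The flat mean was 1.64 ± 0.888 CPM and the micropillar mean 0.134 ± 0.133 CPM (SD, n = 3 each), and the groups did not overlap. The log2 fold change of Lamb1 was -3.51 with a standard error of 0.72 and a 95% interval of -5.11 to -1.92, and the Benjamini-Hochberg adjusted p was 0.0074 in the quasi-likelihood test of edgeR. By log2 fold change it ranked 3 from the lowest of the genes tested, but fitted values of genes with so few counts depend on the prior count. The exact permutation test over CPM gave p = 0.1, two-sided, which is the smallest it can give.

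Added over libraries, Lamb1 had 67 counts on flat gels and 6 on micropillars. Relative to the library sizes as TMM adjusts them, the flat rate was 12.4 times that on micropillars. Its exact 95% interval of 5.42 to 35.1 treats the libraries of a group as 1. Without flat replicate 2 the sums were 27 and 6 and the ratio was 8.15 (3.30 to 24.1). Without micropillar replicate 3 the ratio was 24.5 (6.51 to 206). Without micropillar replicate 2 it was 8.48. The size of the difference thus moved with single libraries, and its direction did not in any of the 6 sets with a library left out.

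The filter on low counts bears on Lamb1. It kept genes past 0.709 CPM of library totals in at least 3 libraries. All 4 genes passed, but Lamb1 did so through its 3 flat libraries alone and Lama2 through 2 flat libraries and 1 micropillar library. A gene as scarce as Lamb1 on micropillars could thus enter the test only where its flat level was higher. With no filter on low counts its log2 fold change was -3.47 and its adjusted p was 1.8e-05 from the same test of edgeR, over 22182 genes. The smaller p was not particular to Lamb1. In that fit of edgeR the adjusted p was also smaller for Bcan (1.7e-15) and Fbln2 (5.9e-14), and that of Lama2 was 0.94.

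The alpha 2 chain was as scarce and did not pass the test. Lama2 (ENSRNOG00000011134) lies on the plus strand of chromosome 1, from 18491384 to 19143269, and its 65 exon blocks hold 9484 bases. It had 9, 15 and 8 counts on flat gels and 10, 11 and 11 on micropillars, or 0.697, 0.995 and 0.718 CPM against 0.679, 0.794 and 0.733 CPM. The groups overlapped, and flat replicate 2 was again the highest. The flat mean was 0.803 ± 0.167 CPM and the micropillar mean 0.735 ± 0.0573 CPM (SD, n = 3 each).

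Lama2 had a log2 fold change of -0.14 with a standard error of 0.40, and the Benjamini-Hochberg adjusted p was 0.83 in the quasi-likelihood test of edgeR. Its 95% interval ran from -1.03 to 0.75, so changes within that range in either direction were not excluded at this depth. The pooled sums, 32 counts in either group, gave a flat to micropillar ratio of 1.11 (0.661 to 1.88) relative to the TMM-adjusted library sizes. The exact permutation test over CPM gave p = 0.7. Without flat replicate 2 the log2 fold change was 0.06, so the sign rested on that library.

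**Figure D2:**
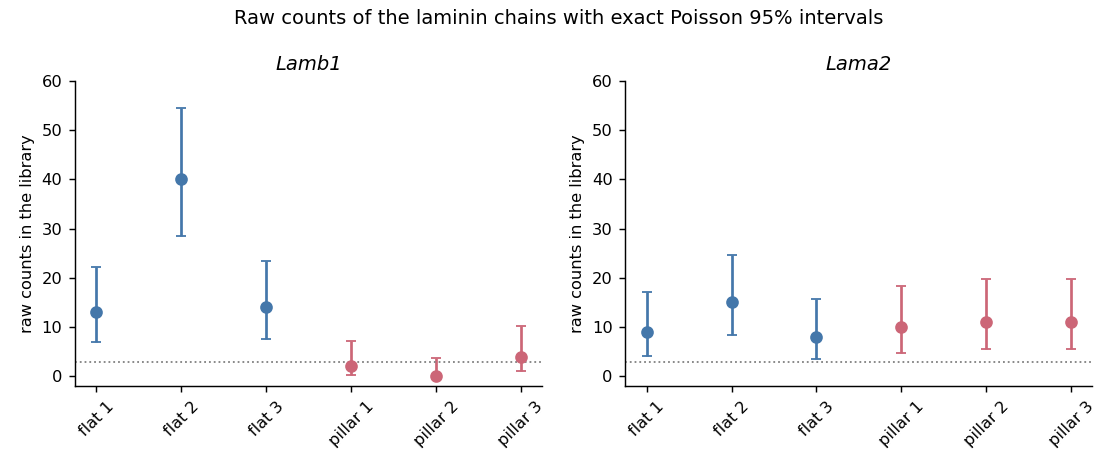
Raw counts of Lamb1 and Lama2 in each flat (blue) and micropillar (red) library, with exact Poisson 95% intervals; the dotted line marks 3 counts, the one-sided limit that a count of 0 allows, whereas the bars are two-sided and reach 3.69 there. Lamb1 falls from 13 to 40 counts on flat gels to 0 to 4 on micropillars, and Lama2 lies between 8 and 15 counts throughout.

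Within a library, both laminin genes are read at the same depth. Lamb1 made up 59.1%, 72.7% and 63.6% of their joint counts in flat replicates 1 to 3, and 16.7%, 0% and 26.7% in micropillar replicates 1 to 3. The groups did not overlap. The mean share was 65.2% ± 6.94 (SD, n = 3) against 14.4% ± 13.5 (SD, n = 3), with p = 0.1 in a two-sided exact permutation test, the smallest possible. Per kilobase of exon, Lamb1 was at 2.43, 4.48 and 2.94 times the level of Lama2 on flat gels and at 0.336, 0 and 0.611 times on micropillars. Lamb1 was thus above Lama2 in each flat library and below it in each micropillar library. Few counts lie behind these shares: the exact Clopper-Pearson 95% interval, for counting error only, was 36.4% to 79.3% for 13 of 22 counts in flat replicate 1 and 0% to 28.5% for 0 of 11 counts in micropillar replicate 2. The intervals of micropillar replicates 1 (2.09% to 48.4%) and 3 (7.79% to 55.1%) overlapped those of flat replicates 1 and 3.

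In CPM per kilobase of exon, the order on flat gels was Bcan at 79.1 ± 15.3, Fbln2 at 7.10 ± 0.354, Lamb1 at 0.290 ± 0.157 and Lama2 at 0.0847 ± 0.0176 (SD, n = 3 each). On micropillars it was Bcan at 198 ± 6.35, Fbln2 at 16.4 ± 1.45, Lama2 at 0.0775 ± 0.00604 and Lamb1 at 0.0238 ± 0.0236 (SD, n = 3 each). Neighbours in either order did not overlap between libraries. By this level Bcan stood at percentile 91.9 of the genes tested on flat gels and 97.2 on micropillars, and Fbln2 at 44.7 and 64.5. Both laminin chains were near the bottom, Lamb1 at percentiles 2.17 and 0.0304 and Lama2 at 0.0684 and 0.281. The laminin values rest on 0 to 40 counts in libraries of 10645621 to 15624525 counts.

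**Figure D3:**
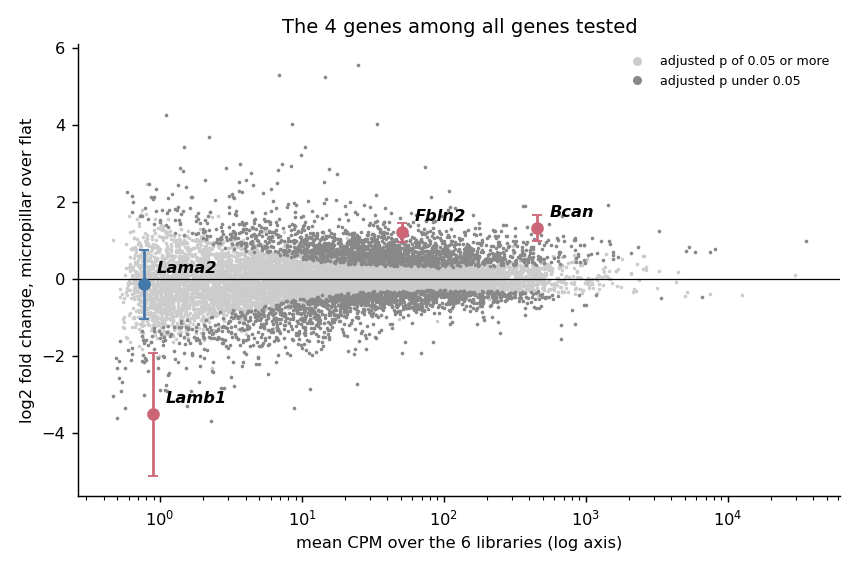
Mean CPM over the 6 libraries (log axis) against the log2 fold change for every gene tested (grey points, darker where the adjusted p is under 0.05), with the 4 genes and their 95% intervals in red where called and blue where not. Bcan at 1.32 and Fbln2 at 1.21 lie among genes of ample counts, and Lamb1 at -3.51 lies at the scarce end, next to Lama2 at -0.14.

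The deposited rlog table, log2 levels from DESeq2 with shrinkage of scarce genes, gives the same genes on another scale. Bcan was at 12.14, 12.17 and 11.87 on flat gels and 12.89, 12.88 and 12.84 on micropillars, a mean difference of 0.81. Fbln2 was at 9.0, 9.03 and 8.96 against 9.72, 9.72 and 9.58, a mean difference of 0.68. For Lamb1 the values were 3.50, 3.76 and 3.54 against 3.33, 3.30 and 3.36, and the mean difference of -0.27 is far smaller in size than its fitted log2 fold change. Lama2 lay between 3.38 and 3.43 throughout. On the rlog scale Lamb1 had the smallest difference of the 3 called genes, and on the scale of fitted fold changes it had the largest.

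Other matrix and adhesion genes were read from a list of 55, but an identifier could be paired with a symbol for only 12 of them, the 4 genes above included, and all 12 are genes that the study itself lists from these libraries. All 12 were tested: 6 rose, 1 fell and 5 were not called, and the median log2 fold change was 0.61, beside -0.02 over all genes tested. Leaving out the 4 genes, 4 of 8 rose and none fell, but Vwa1 and Scube1 among them are top genes of the study from these libraries. Beside 26.7% of all genes called, these counts describe a chosen set and not the matrix as a whole.

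Among proteoglycans, Cspg4, the transmembrane proteoglycan NG2 of OL progenitors, rose with a log2 fold change of 0.54 (adjusted p = 0.0052, Benjamini-Hochberg, quasi-likelihood test of edgeR). Its level was between 54.6 and 60.8 CPM on flat gels and between 81.0 and 83.0 CPM on micropillars. Tnc encodes tenascin-C, a glycoprotein that lecticans can bind. Tnc was at 33.7, 65.0 and 31.5 CPM on flat gels and 81.1, 79.3 and 50.4 CPM on micropillars, with flat replicate 2 above micropillar replicate 3, and was not called (adjusted p = 0.085, the same test of edgeR). Without flat replicate 2 it was called, with a log2 fold change of 1.11 (adjusted p = 0.0046 from edgeR).

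Vwa1 encodes a protein of basement membranes that binds perlecan. Vwa1 rose from 2.48, 1.53 and 1.35 CPM on flat gels to 24.6, 22 and 11 CPM on micropillars, a log2 fold change of 3.42 (adjusted p = 0.00096, Benjamini-Hochberg, quasi-likelihood test of edgeR). Scube1, a secreted protein with EGF-like repeats, rose with a log2 fold change of 1.45 (adjusted p = 0.00088, the same test of edgeR). Lamb1 and Vwa1, both of basement membranes, thus differed in opposite directions.

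Among receptors and adhesion molecules, Nfasc, the cell adhesion molecule neurofascin, rose with a log2 fold change of 0.82 (adjusted p = 0.0085, Benjamini-Hochberg, quasi-likelihood test of edgeR). The chains of laminin-binding integrins were far more abundant than the laminin genes. Itga6 was at 67.1 to 77.4 CPM on flat gels and 61.2 to 63.0 CPM on micropillars, and Itgb1 was at 503 to 553 and 586 to 660 CPM. Neither passed the test (adjusted p = 0.099 and 0.092 from edgeR), nor did Ptk2, the focal adhesion kinase (adjusted p = 0.29 from edgeR). The CPM of the groups did not overlap for either integrin chain, as for 46.0% of all genes.

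**Figure D4:**
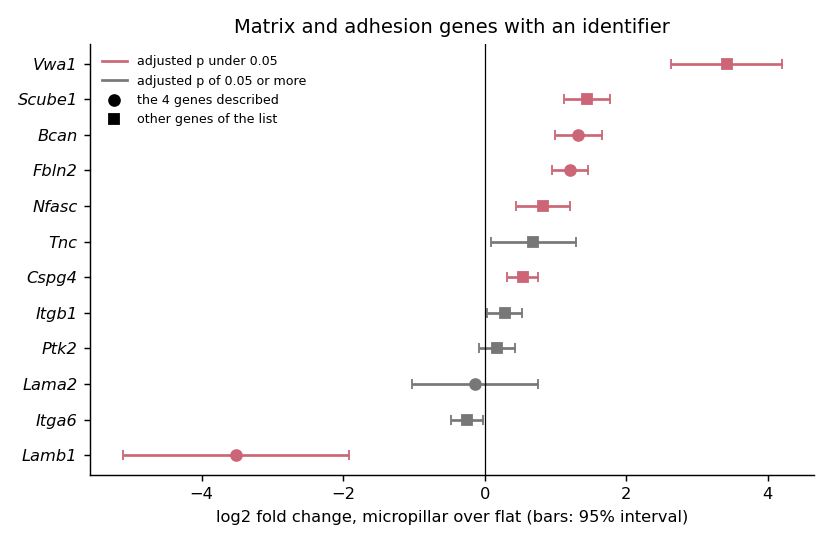
Log2 fold change (points) and 95% interval (bars) of the 12 matrix and adhesion genes with an identifier, sorted by size, with circles for the 4 genes described and squares for the rest, and red for an adjusted p under 0.05. Vwa1 at 3.42 and Lamb1 at -3.51 mark the ends, and Lama2 has the widest interval after Lamb1.

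The labelled cell type was checked against markers. All 7 OL markers were present, with summed levels of 46554 to 82375 CPM on flat gels and 90627 to 98042 CPM on micropillars, and 4 of the 7 rose. The libraries held other glia too. The 7 astrocyte markers summed to 1258, 2041 and 1329 CPM in flat replicates 1 to 3 and 2774, 2744 and 2205 CPM in micropillar replicates 1 to 3, and 3 of them rose (Gfap, Aqp4 and Aldh1l1), 1 fell (Slc1a2) and 3 were not called. The sums of the groups did not overlap and were higher on micropillars, but most of each sum was Gfap. Gfap was at 779 to 1336 CPM on flat gels and 1649 to 2075 CPM on micropillars, whereas Slc1a2 was at 51.9 to 84.5 and 41.2 to 42.9 CPM. The sums thus do not stand for all 7 markers. Bcan, which astrocytes also make, was higher on micropillars as well, as was Fbln2. Flat replicate 2 had the highest astrocyte sum and the lowest OL sum of its group, and within the flat group the highest CPM of each of the 4 genes. Without it the log2 fold change was 1.42 for Bcan, 1.24 for Fbln2 and -2.95 for Lamb1, and all 3 stayed called. The part of these cells in the results was not tested.

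The 4 neuron markers summed to 434 to 441 CPM on flat gels and 517 to 553 CPM on micropillars, with 1 higher (Tubb3), 2 lower (Map2 and Eomes) and 1 not called. Tubb3 was at 135 to 212 CPM on flat gels and 367 to 385 CPM on micropillars. Map2 was at 218 to 300 CPM and 148 to 170 CPM. The higher sum thus came from Tubb3 and does not stand for the 4 markers. The 2 precursor markers summed to 286 to 363 and 280 to 316 CPM, with 1 of them, Cspg4, higher. Of 6 microglia markers only Cx3cr1 had an identifier, at 0.464, 2.32 and 1.79 CPM on flat gels and 0.408, 0.577 and 0.799 CPM on micropillars, and it was not called. None of the 10 vascular and fibroblast markers had one, so the cells best known for laminin chains could not be checked. In bulk RNA, fewer cells of a type and less RNA per cell cannot be told apart.

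The genes most like each of the 4 were sought among 75 genes with a symbol, by Pearson's r of log2(CPM + 0.5) over the 6 libraries. They are a description only, over libraries that fall into 2 groups. The candidates came only from the top genes, heat map genes and markers that the study lists from these libraries. All those named below for Bcan and Fbln2 are among its top genes, so a high r was set in part by that choice. With the group means taken out, r was between 0.62 and 0.98 for the genes named. Nearest to Bcan were Crlf2 (r = 0.997), Slc39a7 (0.997) and Marcksl1 (0.995). Nearest to Fbln2 were Ddit4 (0.997), Vegfa (0.995) and Tmem178a (0.994). Lamb1 was nearest to Nrg1 (0.978), Eomes (0.947) and Gal (0.946). Lama2, which differed little between groups, was near to Slc1a3 (0.858), an astrocyte marker of the list above, and Vim (0.850). For Slc1a3 Spearman's rho was only 0.257, and flat replicate 2, at 330 CPM of Slc1a3, was the highest library for it as for Lama2.

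**Figure D5:**
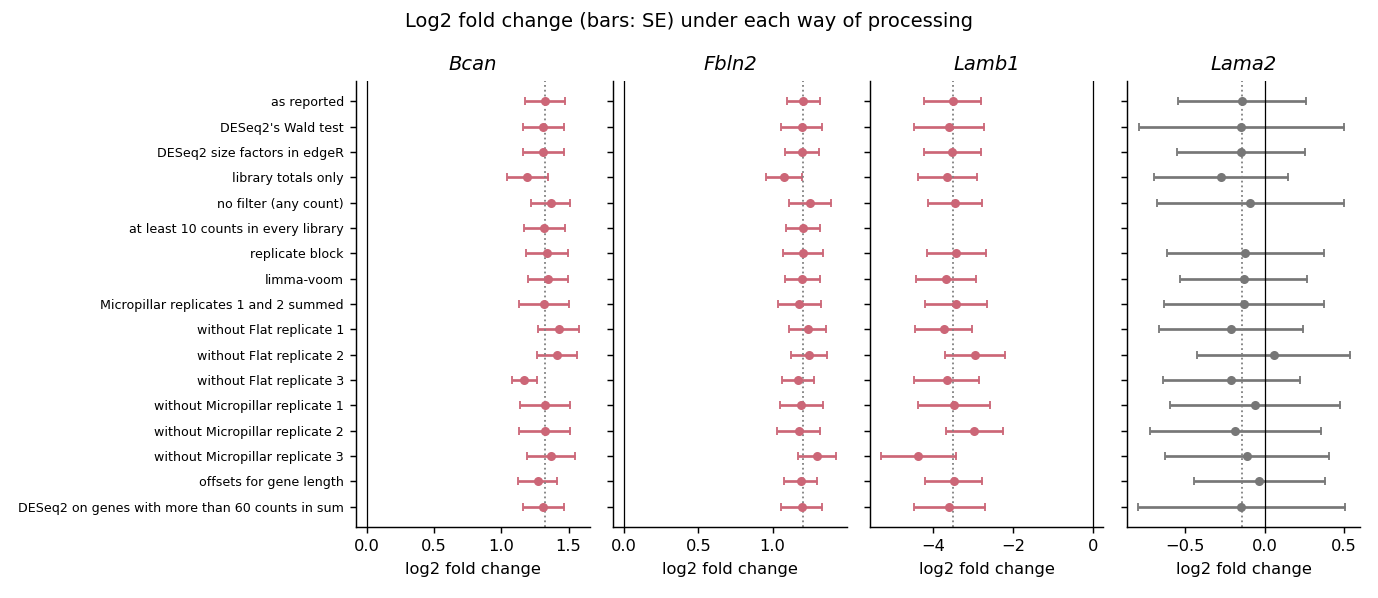
Log2 fold change (points) and standard error (bars) of each gene as reported and under 16 other ways of processing, red where the adjusted p is under 0.05; the dotted line is the reported value. Bcan stays between 1.17 and 1.43, Fbln2 between 1.08 and 1.30 and Lamb1 between -4.38 and -2.95, and Lama2 crosses 0; both laminin genes have no value where at least 10 counts in every library were required.

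The 3 calls held under each alternative that could give a value. For Bcan and Fbln2 these were 16 alternatives, with adjusted p of at most 0.01 and 0.0073. For Lamb1 they were 15, with an adjusted p of at most 0.04, reached without micropillar replicate 1. Its call is of another kind, since Lamb1 passed the filter as reported through its 3 flat libraries alone. The filter that asked for at least 10 counts in every library removed it. Lama2 was called in none of 15, with an adjusted p of at least 0.65. These p-values are from edgeR, DESeq2 or limma-voom.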

How the data were processed

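RNA of 6 libraries was sequenced as poly(A)-selected, paired reads. The authors trimmed reads with Trimmomatic, mapped them with STAR 2.5.2b to Rnor6.0 and counted them per Ensembl gene with featureCounts of Subread 1.5.2, and deposited raw counts per gene and log2 rlog values of 13061 genes; the strand setting is not given in the sources used here. The test used filterByExpr, TMM, glmQLFit and glmQLFTest of edgeR 4.0.16 (R 4.3.3), with no block, over 13163 genes, which hold 99.8% to 99.9% of each library's counts. The fits were tested on simulated data. Library totals were 13135551, 13681024 and 10645621 for flat and 15432670, 14523168 and 15624525 for micropillar replicates 1 to 3. Symbols other than those of the 4 genes came from matching recomputed DESeq2 1.42.0 values with the study's source data, for 76 genes. The genes named are the 4 genes, the listed genes with an identifier and, for each of the 4, the 3 with the most similar pattern, of which 1 is not reported here. The genes and lists were chosen with earlier results of these data known. Alternatives were DESeq2, limma-voom (limma 3.58.1), other scalings and filters, the replicate number as a block, summed micropillar replicates 1 and 2, and each library left out; offsets for gene length and DESeq2 on genes with more than 60 counts in sum were added after seeing the data. Sequences are from RefSeq (GRCr8), which held all 4 promoters.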

Additional observations from a re-analysis of the deposited data

How the results depend on the processing

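Bcan, Fbln2 and Lamb1 kept their direction and their call under all alternatives that gave a value, and the list of matrix and adhesion genes had 6 to 9 genes called of the 10 or 12 tested. Requiring 10 counts in every library removed both laminin genes. Lamb1 had passed the filter as reported through its flat libraries alone, so its call is not of the same kind as those of Bcan and Fbln2. Lama2 turned to a log2 fold change of 0.056, and its CPM difference (micropillar minus flat) to 0.0282 from -0.0677, without flat replicate 2; the cause was not tested. Left-out libraries moved Bcan between 1.17 and 1.43, Fbln2 between 1.17 and 1.30, Lamb1 between -4.38 and -2.95 and Lama2 between -0.21 and 0.06, the CPM difference of Lamb1 between -1.80 and -0.977 and that of Lama2 between -0.109 and 0.0282, and the log2 ratio of Bcan to Fbln2 between 0.0024 and 0.21. The number of genes called moved too. It was 3514 as reported (2014 higher, 1500 lower) and 1461 with micropillar replicates 1 and 2 summed (996 higher, 465 lower). With a library left out it was 1358 to 4622, lowest without micropillar replicate 2. Such a count is not on the scale of log2 fold changes, whose median over all genes stayed at -0.02 with those replicates summed. With library totals alone, 1414 were higher and 2448 lower, and the median over all genes was a log2 fold change of -0.15 in place of -0.02; relative to that shift Bcan (1.19) and Fbln2 (1.08) remained above it. Tnc, Itgb1, Itga6 and Ptk2 passed the threshold in 5, 3, 2 and 1 of 16 alternatives.

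Same-numbered flat and micropillar libraries did not deviate together (correlations 0.074, -0.082 and 0.0011), so the numbers were not taken as pairs. With the replicate number as a block, log2 fold changes were 1.34 for Bcan, 1.21 for Fbln2, -3.43 for Lamb1 and -0.12 for Lama2, 3315 genes were called, and the block changed no call of the 4 genes. The median squared difference between micropillar replicates 1 and 2, scaled by library totals without TMM, was 1.85 times what sampling alone gives. For the other micropillar pairs it was 3.46 and 3.50 times, and for flat pairs 9.91 to 11.6 times. Counts of 0 to 40 limit both laminin genes.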
